A study of Mus musculus with 10 samples.

Results

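The genes that give cortical interneurons their identity, together with those that make, load and break down GABA, were followed as one list in the cerebral cortex of mice with and without *Crtc1*. The list holds 32 genes chosen by function. They are the enzymes and the transporter of GABA synthesis and release, the GABA-B receptor subunits, the calcium-binding, membrane and secreted proteins that mark interneuron classes, and the transcription factors of the ganglionic eminences. Of the 32, 30 were measured among 18193 genes. The expression of *Gabbr2* and *Pthlh*, for which the annotation used names no probe set, was not analysed here. The array values were compared between 5 WT mice and 5 *Crtc1*-/- mice (labelled Crtc1KO), bred as littermates. All 10 animals were untreated adult females of the C57BL/6N strain, aged 2 months by the labels. The mutation is a constitutive deficiency of *Crtc1*, and the sources name no cell type to which it is confined. Each mouse gave 1 array of whole cortex, so that a lower value of an interneuron gene can come from fewer cells or from less RNA per cell, and these cannot be told apart.

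Cortical interneurons are the inhibitory neurons of the cortex. They make GABA from glutamate with glutamic acid decarboxylase, fill synaptic vesicles with it, and fall into classes marked by parvalbumin, by somatostatin, or by vasoactive intestinal peptide and *Lamp5*. The medial ganglionic eminence of the embryo, through *Nkx2-1* and *Lhx6*, gives rise to the parvalbumin and somatostatin classes, and the caudal eminence to most of the others. CRTC1 is a coactivator of CREB, the transcription factor that binds the cAMP response element (CRE), and the gene of somatostatin is one of the classical CREB targets. The study asked which cortical transcripts change without CRTC1 and also examined interneurons by immunostaining.

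*Crtc1* itself read between 9.51 and 9.86 in the WT mice and between 5.96 and 6.60 in the *Crtc1*-/- mice on the log2 scale, so every array matched its label. Array medians lay between 5.29 and 5.32, and any pair of arrays correlated at 0.994 to 0.998 over probe sets. All array values below are log2 values as deposited, and all differences are the *Crtc1*-/- mean minus the WT mean on that scale.

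Because CRTC1 acts through CREB, the promoters of the genes on which the results turn are shown first. The windows run from 250 bases before to 50 bases after the annotated start (RefSeq, GRCm38.p6), and each is printed 5′ to 3′ on the strand of its gene. *Sst* (chr16:23890795-23891094, minus strand) and *Cort* (chr4:149126714-149127013, minus strand) are the peptide genes with the largest falls. *Gad1* (chr2:70561879-70562178, plus strand) and *Gad2* (chr2:22622077-22622376, plus strand) encode the GABA-making enzymes of the same cells, and *Lamp5* (chr2:136052089-136052388, plus strand, the first of its 2 annotated starts) is the listed gene that rose. Capitals mark each match, on either strand, to the full CRE, TGACGTCA, or to its 5-base core, TGACG, which the full CRE contains.
Sst: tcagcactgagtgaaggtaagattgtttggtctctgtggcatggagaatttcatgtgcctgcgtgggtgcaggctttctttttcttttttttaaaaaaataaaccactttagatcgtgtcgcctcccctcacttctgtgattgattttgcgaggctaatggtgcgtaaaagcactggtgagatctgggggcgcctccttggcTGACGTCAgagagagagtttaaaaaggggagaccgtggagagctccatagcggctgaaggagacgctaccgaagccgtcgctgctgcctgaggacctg
Cort: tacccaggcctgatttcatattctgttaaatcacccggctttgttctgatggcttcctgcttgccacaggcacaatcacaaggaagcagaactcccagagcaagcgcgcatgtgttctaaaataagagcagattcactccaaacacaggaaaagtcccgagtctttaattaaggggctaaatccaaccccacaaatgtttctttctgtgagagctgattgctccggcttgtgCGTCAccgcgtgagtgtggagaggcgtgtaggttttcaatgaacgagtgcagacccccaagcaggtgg
Gad1: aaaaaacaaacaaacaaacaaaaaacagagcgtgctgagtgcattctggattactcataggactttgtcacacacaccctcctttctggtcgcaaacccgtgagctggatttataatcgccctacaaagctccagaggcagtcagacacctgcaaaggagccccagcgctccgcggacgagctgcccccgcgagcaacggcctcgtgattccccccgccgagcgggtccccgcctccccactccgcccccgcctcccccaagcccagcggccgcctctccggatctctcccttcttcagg
Gad2: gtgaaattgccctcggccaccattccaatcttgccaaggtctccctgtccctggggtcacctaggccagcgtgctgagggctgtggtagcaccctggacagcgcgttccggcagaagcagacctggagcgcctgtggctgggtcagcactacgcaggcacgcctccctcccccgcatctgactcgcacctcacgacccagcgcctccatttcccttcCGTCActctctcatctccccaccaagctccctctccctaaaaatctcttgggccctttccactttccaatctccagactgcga
Lamp5: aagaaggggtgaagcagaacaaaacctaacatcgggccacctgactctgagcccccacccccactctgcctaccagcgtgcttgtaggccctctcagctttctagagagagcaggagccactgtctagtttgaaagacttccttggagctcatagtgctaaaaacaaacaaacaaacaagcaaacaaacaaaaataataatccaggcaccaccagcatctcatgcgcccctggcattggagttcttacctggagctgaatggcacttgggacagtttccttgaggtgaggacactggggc

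The full CRE was found in 1.79% of all 32851 windows and in 2.03% of 27025 genes. *Sst* held it 48 bases before the start, and none of the 25 listed genes that have a window did. These 25 include *Gabbr2* and *Pthlh*, whose expression was not measured. No window was available for *Abat*, *Calb1*, *Calb2*, *Dlx5*, *Dlx6*, *Maf* or *Ndnf*. The core TGACG was in 20.8% of all windows and 23.0% of genes. Among the listed genes it was in 6 of 25 (24.0%), which were *Aldh5a1*, *Dlx2*, *Gad2*, *Nkx2-1*, *Sox6* and *Syt2*. The *Gad2* match began 33 bases before the start and the *Cort* match 18 bases before it, while neither the *Gad1* window nor either *Lamp5* window held one. Of the other peptides below, *Npy*, which fell, held neither motif in its window, and *Vip*, which did not pass, held TGACG 79 bases before the start. These matches describe letters in a short window and are no measure of binding.

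Of the 30 measured interneuron and GABA genes, 1 passed the test between genotypes (limma, adjusted p under 0.05 over all genes), against 0.764% of all genes. That gene was *Lamp5*, which rose, a direction called for 0.308% of all genes. No listed gene fell. The 5 *Crtc1*-/- values of *Lamp5* also all lay above the 5 WT values, which held for no other listed gene. Over all genes, groups did not overlap for 3.14%, with the *Crtc1*-/- values above for 1.1% and below for 2.04%. An unadjusted p under 0.05 was reached by 2 of the 30, *Lamp5* and *Calb1*, against 9.86% of all genes. Of the 30, 13 had a difference above 0 and 17 below. Their median was −0.011, against −0.0030 over all genes, and the median size regardless of sign was 0.053 against 0.051.

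**Figure D1:**
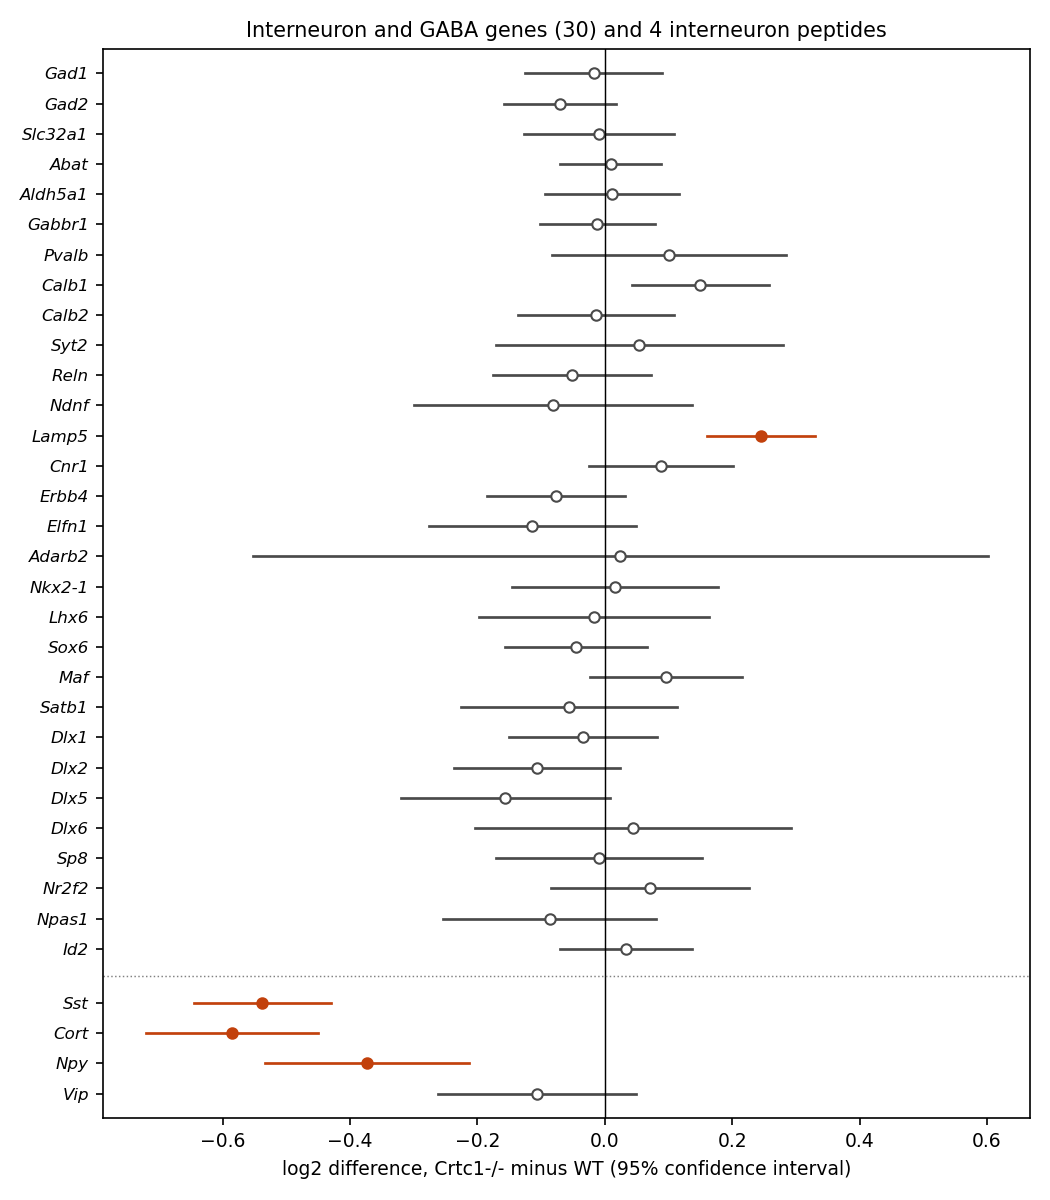
Log2 difference between *Crtc1*-/- and WT cortex (x axis, points, with 95% confidence intervals as lines; n = 5 per genotype) for the 30 measured genes grouped by role, and below the dotted line for 4 interneuron peptides. Filled orange points passed the test; *Lamp5* lies at 0.25 above 0, the other 29 genes lie between −0.16 and 0.15, and *Sst*, *Cort* and *Npy* lie at −0.54, −0.59 and −0.37.

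The other 29 differences ran from −0.16 for *Dlx5* to 0.15 for *Calb1*, and 28 of the 30 genes had an adjusted p above 0.5. A p that misses the threshold does not show that a gene did not change, so the intervals set the limit. The 95% confidence interval held 0 for 28 genes. It lay within 0.3 of 0 on both sides for 27 genes and within 0.2 for 15. The margin on either side of the estimate was narrowest for *Abat* (0.0788), widest for *Adarb2* (0.577) and had a median of 0.123. Even so, the lower bounds of 29 of the 30 intervals lay above the −0.54 measured for *Sst*, with *Adarb2* the exception, and those of all 30 lay above the −0.59 of *Cort*. These are point estimates, with intervals of −0.65 to −0.43 for *Sst* and −0.72 to −0.45 for *Cort*. Many listed genes are made by cells of other classes, so this count is no measure of the number of somatostatin cells. The spread between mice behind these intervals was a median SD of 0.102 in WT and 0.0802 in *Crtc1*-/- mice.

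The genes of GABA synthesis and vesicular loading did not pass the test. *Gad1* (probe set 1416561_at), which encodes the decarboxylase that makes most of the GABA in the cell body, read 11.97, 11.97, 11.97, 12.08 and 12.08 in the WT mice and 12.08, 11.90, 12.02, 11.92 and 12.06 in the *Crtc1*-/- mice. Most values of both groups interleaved, although 2 *Crtc1*-/- mice read below every WT mouse, and *Gad1* was brighter than 98.7% of genes. The means were 12.01 ± 0.062 (SD, n = 5) in WT and 12.00 ± 0.080 (SD, n = 5) in *Crtc1*-/- mice, a difference of −0.018 (95% CI −0.13 to 0.091), with an adjusted p of 0.950. *Gad2* (1429589_at), the decarboxylase found mostly at synaptic terminals, read 9.89, 10.01, 9.88, 9.92 and 9.86 in the WT mice and 9.82, 9.81, 9.83, 9.89 and 9.85 in the *Crtc1*-/- mice. The *Crtc1*-/- values of *Gad2* lay at the lower end, but the highest of them stood above 2 of the 5 WT values, and the difference was −0.071 (95% CI −0.16 to 0.017) with an adjusted p of 0.643. *Slc32a1* (1422756_at), the vesicular GABA transporter, read 9.23, 9.14, 9.12, 9.27 and 9.33 in the WT mice and 9.31, 9.21, 9.12, 9.15 and 9.26 in the *Crtc1*-/- mice. Again the groups overlapped throughout, with a difference of −0.0093 (95% CI −0.13 to 0.11) and an adjusted p of 0.977.

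GABA is broken down by the transaminase *Abat* and then by *Aldh5a1*, succinate semialdehyde dehydrogenase. Neither passed, with differences of 0.0090 (95% CI −0.070 to 0.088) and 0.012 (95% CI −0.094 to 0.12). *Gabbr1*, the subunit of the metabotropic GABA-B receptor that binds GABA, read 11.66, 11.60, 11.55, 11.49 and 11.56 in the WT mice and 11.61, 11.57, 11.57, 11.56 and 11.51 in the *Crtc1*-/- mice. All *Crtc1*-/- values of *Gabbr1* fell inside the WT range, and the difference was −0.012 (95% CI −0.10 to 0.079). These 6 genes of GABA handling held intervals of at most 0.237 from bound to bound.

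**Figure D2:**
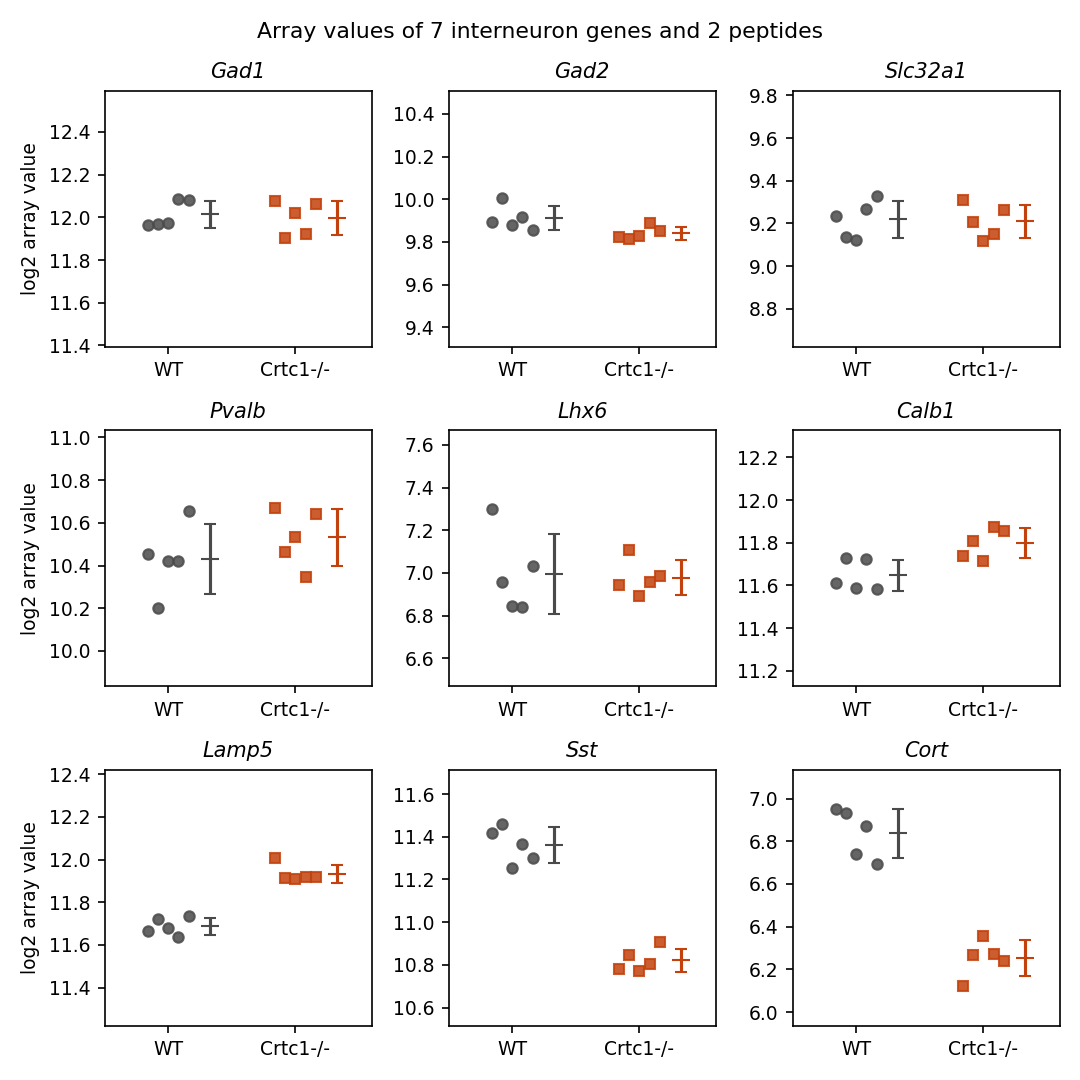
Log2 array values (y axis, each panel spanning 1.2 units) of 7 listed genes and 2 peptides in each of 5 WT mice (grey circles) and 5 *Crtc1*-/- mice (orange squares), with the mean and SD beside them. The groups overlap for *Gad1*, *Gad2*, *Slc32a1*, *Pvalb*, *Lhx6* and *Calb1*, whereas the *Crtc1*-/- values are all higher for *Lamp5* and all lower for *Sst* and *Cort*.

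Among the class markers that bind calcium, *Calb1* (calbindin) came nearest to the threshold. It read 11.61, 11.73, 11.59, 11.73 and 11.58 in the WT mice and 11.74, 11.81, 11.71, 11.87 and 11.86 in the *Crtc1*-/- mice. All 5 *Crtc1*-/- values lay above 3 of the WT values but overlapped the other 2, which were both 11.73. The difference was 0.15 (95% CI 0.042 to 0.26), the unadjusted p from limma was 0.0105 and the adjusted p was 0.292. The 4 probe sets of *Calb1* all had differences above 0, namely 0.15, 0.19, 0.17 and 0.09. Calbindin is also made by pyramidal neurons of the upper layers, so its level is not a measure of interneurons alone.

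*Pvalb* (parvalbumin), the marker of fast-spiking basket and chandelier cells, read 10.45, 10.20, 10.42, 10.42 and 10.66 in the WT mice and 10.67, 10.46, 10.53, 10.35 and 10.64 in the *Crtc1*-/- mice. Its lowest value belonged to a WT mouse and its highest values were shared by both genotypes, with a difference of 0.10 (95% CI −0.082 to 0.28) and an adjusted p of 0.803. *Calb2* (calretinin), found in many interneurons that also make vasoactive intestinal peptide, read 7.40, 7.53, 7.25, 7.28 and 7.35 in the WT mice and 7.32, 7.37, 7.31, 7.44 and 7.30 in the *Crtc1*-/- mice. The *Crtc1*-/- values of *Calb2* all lay within the WT range, and the difference was −0.014 (95% CI −0.14 to 0.11). *Syt2*, the synaptotagmin of fast-spiking terminals, differed by 0.054 (95% CI −0.17 to 0.28), with 2 high arrays in each genotype.

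Among the secreted and membrane markers, 1 of 7 measured genes passed and rose, and none fell. *Lamp5* (1423853_at), which encodes a lysosome-associated membrane protein and marks neurogliaform cells but is also made by some projection neurons, read 11.66, 11.72, 11.68, 11.64 and 11.74 in the WT mice and 12.01, 11.91, 11.91, 11.92 and 11.92 in the *Crtc1*-/- mice. The lowest *Crtc1*-/- value stood 0.17 above the highest WT value, and the 5 values of each genotype were closely spaced. The means were 11.69 ± 0.041 (SD, n = 5) in WT and 11.93 ± 0.041 (SD, n = 5) in *Crtc1*-/- mice. The difference was 0.25 (95% CI 0.16 to 0.33), or a fold of 1.19 (1.12 to 1.26), with an adjusted p from limma of 0.0120 over genes and 0.0406 over probe sets. *Lamp5* was brighter than 98.4% of genes and was read by a single probe set. With each array left out in turn the adjusted p was 0.0205 to 0.0365 over genes, whereas over probe sets it missed the threshold in all 10 of these fits.

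Some marker lists of other cells leaned to one side between genotypes, which was not tested for any list as a whole. The 11 measured oligodendrocyte markers were all above 0 with none called (median 0.17). Their mean level per array ran from 9.97 to 10.30 in WT and from 10.23 to 10.55 in *Crtc1*-/- mice, with overlap. Of the astrocyte markers 5 of 6 were above 0 (median 0.077), of the microglia markers 4 of 4 (median 0.012) and of the endothelial markers 5 of 5 (median 0.11), with none called. Of 8 hippocampal markers, *Fibcd1* (−0.41) and *Fam163b* (−0.28) fell, and the mean level was 4.73 to 4.94 in WT and 4.54 to 4.71 in *Crtc1*-/- mice. Of these 8, 6 had a difference below 0 and 2 above. Most were dim, since all but *Fam163b* (8.36 over all arrays) read between 3.06 (*Iyd*) and 5.29 (*Trpc6*). With the oligodendrocyte mean as a covariate *Lamp5* differed by 0.26 (adjusted p = 0.115, limma), and with the hippocampal mean by 0.20 (adjusted p = 0.602), and it passed in neither of these fits. The hippocampal mean did not overlap between genotypes, so a fit with it cannot separate that mean from genotype. *Nrn1*, a marker of projection neurons that is not on the list, rose by 0.28 (adjusted p = 0.0174), the 1 of 8 measured projection neuron markers that passed. Of these 8, 6 had a difference below 0, among them *Tbr1* (−0.18), *Slc17a7* (−0.13) and *Neurod6* (−0.19, groups not overlapping), with adjusted p of 0.267, 0.319 and 0.288. Whether other cells account for the *Lamp5* value was not tested.

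The rest of this group did not pass. *Reln*, the secreted glycoprotein of layer 1 and neurogliaform cells, read 9.55, 9.36, 9.47, 9.43 and 9.49 in the WT mice and 9.35, 9.57, 9.29, 9.39 and 9.43 in the *Crtc1*-/- mice. These values interleaved, with a difference of −0.052 (95% CI −0.18 to 0.072). *Ndnf*, another neurogliaform marker, differed by −0.082 (95% CI −0.30 to 0.14), and *Cnr1*, the cannabinoid receptor that is densest on cholecystokinin basket cells, by 0.088 (95% CI −0.025 to 0.20). *Elfn1*, a synaptic organizer of somatostatin cells, differed by −0.11 (95% CI −0.28 to 0.048). The neuregulin receptor *Erbb4* had a difference of −0.077 (95% CI −0.19 to 0.032), but its probe set was dimmer than nearly every gene on the array at 2.64 in WT and 2.56 in *Crtc1*-/- mice. *Adarb2*, a marker of caudally derived interneurons, was the noisiest listed gene, with an SD of 0.446 in WT and 0.549 in *Crtc1*-/- mice and a difference of 0.024 (95% CI −0.55 to 0.60).

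**Figure D3:**
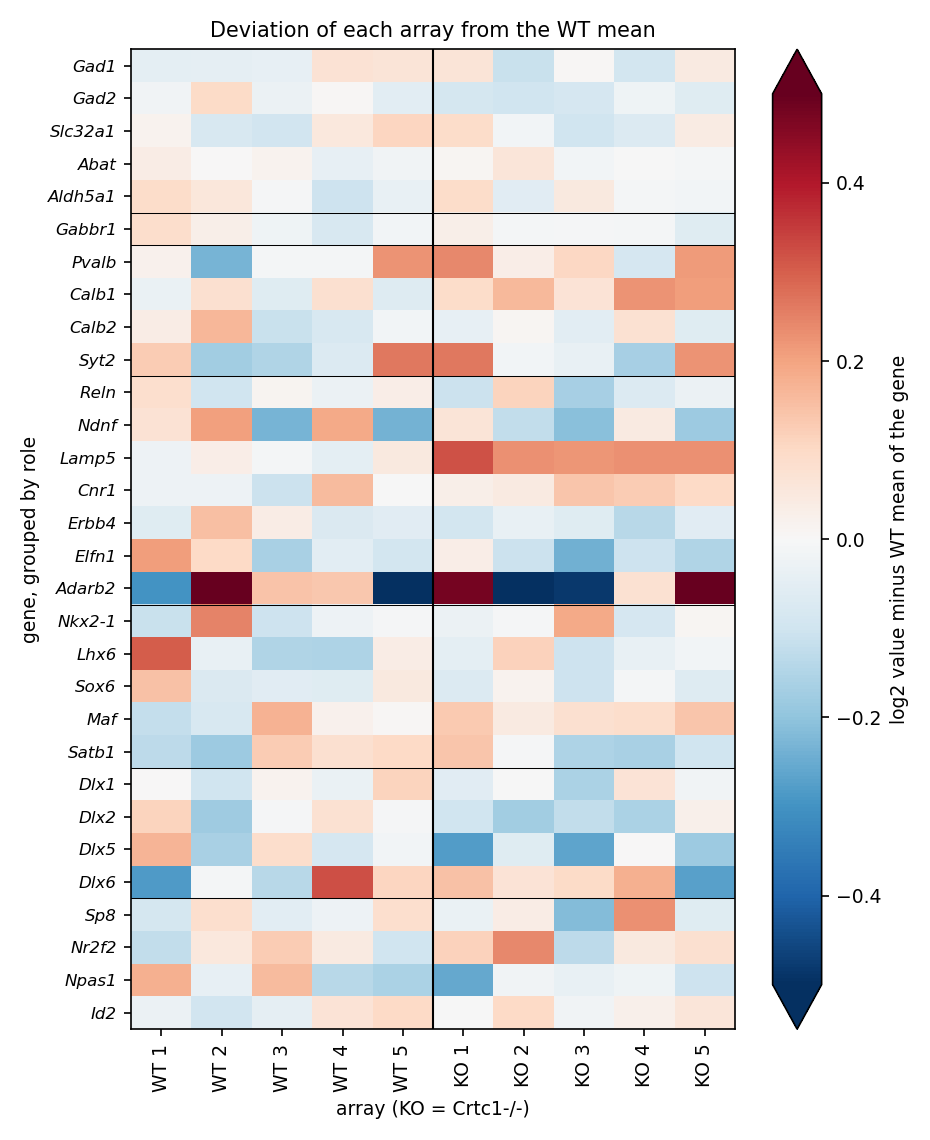
Log2 value of each of the 10 arrays (columns) minus the WT mean of the gene, for the 30 measured genes (rows, grouped by role; KO stands for *Crtc1*-/-; the colour scale is capped at 0.5). *Lamp5* is the only row in which all 5 *Crtc1*-/- arrays lie above every WT array, and *Adarb2* exceeds the colour scale in both genotypes.

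None of the 13 transcription factors passed. In the medial ganglionic eminence group, *Lhx6* (LIM homeobox 6), which keeps the identity of parvalbumin and somatostatin cells into adulthood, read 7.30, 6.96, 6.84, 6.84 and 7.03 in the WT mice and 6.95, 7.11, 6.89, 6.96 and 6.98 in the *Crtc1*-/- mice. A single WT mouse at 7.30 stood above all the others, and the difference was −0.018 (95% CI −0.20 to 0.16) with an adjusted p of 0.972. *Sox6*, which acts downstream of *Lhx6*, differed by −0.046 (95% CI −0.16 to 0.065), *Satb1* by −0.057 (95% CI −0.23 to 0.11) and *Maf* by 0.096 (95% CI −0.023 to 0.22). *Nkx2-1*, the embryonic factor upstream of *Lhx6*, was dim at a mean of 3.99 over all arrays and differed by 0.016 (95% CI −0.15 to 0.18).

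The *Dlx* homeobox genes specify GABA neurons in all ganglionic eminences. *Dlx1* read 7.69, 7.58, 7.70, 7.65 and 7.80 in the WT mice and 7.63, 7.68, 7.53, 7.75 and 7.67 in the *Crtc1*-/- mice, and the groups overlapped, with a difference of −0.034 (95% CI −0.15 to 0.083). *Dlx2* lay at −0.11 (95% CI −0.24 to 0.024) and *Dlx6* at 0.044 (95% CI −0.20 to 0.29). *Dlx5* had the lowest difference on the list, −0.16 (95% CI −0.32 to 0.0075), an unadjusted p from limma of 0.0596 and an adjusted p of 0.535. Of the factors linked to the caudal eminence and its classes, *Nr2f2* (COUP-TFII) differed by 0.071 (95% CI −0.085 to 0.23), *Sp8* by −0.0093 (95% CI −0.17 to 0.15), *Npas1* by −0.087 (95% CI −0.25 to 0.081) and *Id2* by 0.033 (95% CI −0.071 to 0.14). *Sp8* and *Nkx2-1*, with *Erbb4*, were the 3 listed genes among the dimmest 25 percent of all genes.

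The listed genes were read by 69 probe sets in all, and 17 genes had more than 1. Tested over 45037 probe sets, 1 of the 69 passed (limma), that of *Lamp5*, against 0.302% of all probe sets, and 1 had groups that did not overlap, against 2.08%. Of the 69, 34 were above 0 and 35 below, from −0.20 to 0.25. All probe sets had the same sign in 6 of the 17 genes, so the sign of a small difference in the remaining genes turned on which probe set stood for the gene. In *Gad2*, *Slc32a1*, *Adarb2* and *Maf* the mean over all probe sets had the opposite sign of the brightest one, at 0.0080, 0.035, −0.092 and −0.026.

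**Figure D4:**
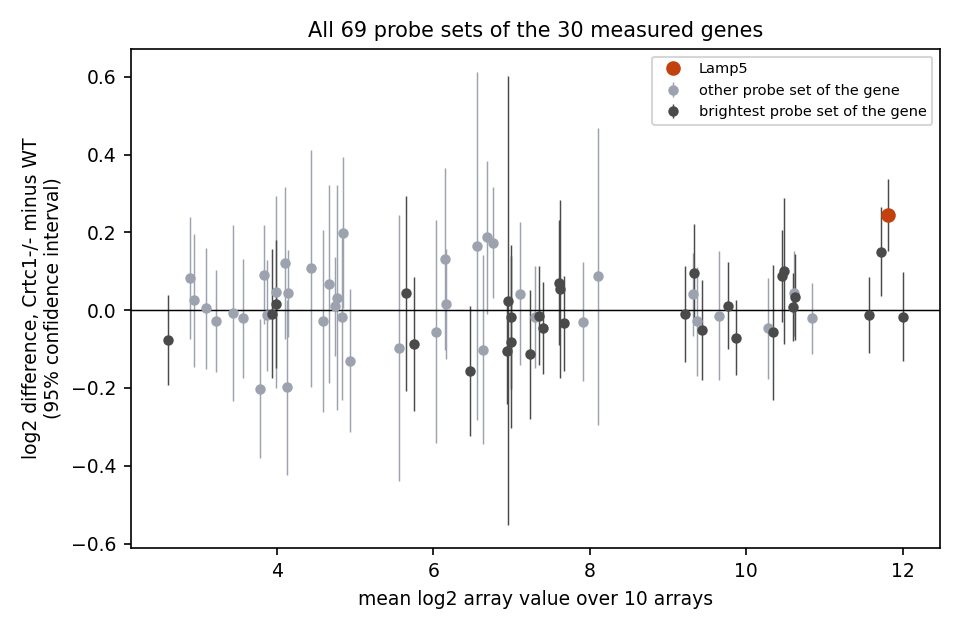
Log2 difference with its 95% confidence interval (y axis) against the mean log2 array value over 10 arrays (x axis) for the 69 probe sets of the 30 genes. Black points are the brightest probe set of each gene and grey points the others; *Lamp5* (orange, 0.25) is the single probe set that passed, and 5 of the 69 had an unadjusted p under 0.05.

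Whether listed genes vary together between mice was described within genotype, after each group mean was subtracted. Both genes of a pair were read on the same array. Over the 10 arrays, *Pvalb* and *Syt2*, both of fast-spiking cells, had the smallest Pearson p of 435 pairs, with a Pearson r of 0.895 (exact permutation p = 0.000417, adjusted 0.181) and a Spearman rho of 0.891 (exact permutation p = 0.00361, adjusted 0.438). Without the 2 arrays farthest from the median of *Pvalb*, r was 0.876. *Lhx6* and *Sox6* followed, with r of 0.918 (exact permutation p = 0.00313, adjusted 0.498), rho of 0.903 (exact permutation p = 0.00403, adjusted 0.438) and r of 0.716 without 2 arrays. By Spearman the smallest p belonged to *Reln* and *Sox6*, with rho of 0.855 (exact permutation p = 0.00167, adjusted 0.438) and r of 0.739 (exact permutation p = 0.00354, adjusted 0.498). No pair passed after adjustment, 213 of 435 coefficients were positive and their median was −0.0049.

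The peptides that the same interneurons release are not on the list and were set beside it. Of 8 peptide genes, 3 fell (against 0.456% of all genes called lower) and none rose, and the median was −0.16. Somatostatin, *Sst*, read 11.42, 11.46, 11.25, 11.37 and 11.30 in the WT mice and 10.78, 10.85, 10.77, 10.80 and 10.91 in the *Crtc1*-/- mice. No value overlapped, and the difference was −0.54 (95% CI −0.65 to −0.43) with an adjusted p from limma of 0.000270. Cortistatin, *Cort*, a relative of somatostatin made in cortical interneurons, read 6.95, 6.93, 6.74, 6.87 and 6.69 in the WT mice and 6.12, 6.27, 6.36, 6.27 and 6.24 in the *Crtc1*-/- mice, a difference of −0.59 (95% CI −0.72 to −0.45) with an adjusted p of 0.000767. Neuropeptide Y, *Npy*, read 11.44, 11.45, 11.28, 11.15 and 11.08 in the WT mice and 10.89, 10.91, 10.81, 10.92 and 10.99 in the *Crtc1*-/- mice. Its groups also kept apart, by 0.09, and it differed by −0.37 (95% CI −0.53 to −0.21) with an adjusted p of 0.0408. Its adjusted p was 0.0205 to 0.108 with each array left out, and it missed the threshold in 8 of those 10 fits, all but those without WT replicate 4 or 5. *Vip*, vasoactive intestinal peptide, differed by −0.11 (95% CI −0.26 to 0.048) and did not pass, nor did *Cck*, *Tac1*, *Crh* or *Penk*. For 4 of the 8 the *Crtc1*-/- values all lay below the WT values, against 2.04% of all genes. The last of these was *Cck*, cholecystokinin, at −0.076 (95% CI −0.16 to 0.0061), with an adjusted p from limma of 0.557. Its groups lay only 0.0071 apart. With the hippocampal mean as a covariate *Sst* and *Cort* lay at −0.43 and −0.39 and no longer passed (adjusted p = 0.111 and 0.167), and with the oligodendrocyte mean they lay at −0.45 and −0.54 and passed (adjusted p = 0.00443 and 0.0233). *Npy* lay at −0.21 with either covariate and did not pass (limma adjusted p = 0.823 and 0.391). Because the hippocampal mean did not overlap between genotypes, the fits with it cannot separate that mean from genotype.

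The difference between a peptide and a GABA neuron gene was tested directly, as the log2 ratio of both within each array. *Gad1*, *Gad2*, *Slc32a1* and *Lhx6* are made by more interneuron classes than the peptides are. A ratio therefore cannot tell fewer cells of a single class from less peptide RNA per cell, which was not tested. Of 16 ratios, 12 differed between genotypes (two-sided exact permutation test, adjusted over the 16), all of them ratios of *Sst*, *Cort* or *Npy*. Each ratio difference is the peptide difference minus that of the GABA neuron gene, both given above. The ratios of a peptide also share its values on the same arrays. The 12 calls therefore largely restate the falls of these peptides and are not 12 separate results. Relative to *Gad1*, *Gad2*, *Slc32a1* and *Lhx6*, the *Sst* differences were −0.52, −0.47, −0.53 and −0.52 on the log2 scale. For *Cort* the differences were −0.57, −0.51, −0.58 and −0.57. In all 8 of these ratios the groups did not overlap, and each had the smallest p that 5 against 5 arrays can give (exact permutation p = 0.00794, adjusted 0.0127). The *Npy* ratios, −0.36, −0.30, −0.36 and −0.36, had adjusted p between 0.0127 and 0.0212 by the exact permutation test, and overlapped between groups against *Gad1* and *Slc32a1*. Leaving out *Crtc1*-/- replicate 1, 3 or 5 ended both of these calls (10 of 16 ratios), leaving out replicate 2 ended that against *Slc32a1* and leaving out replicate 4 that against *Gad1* (11 of 16). The *Vip* ratios, −0.089, −0.036, −0.098 and −0.089, did not pass (exact permutation, adjusted p = 0.440 to 0.595).

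**Figure D5:**
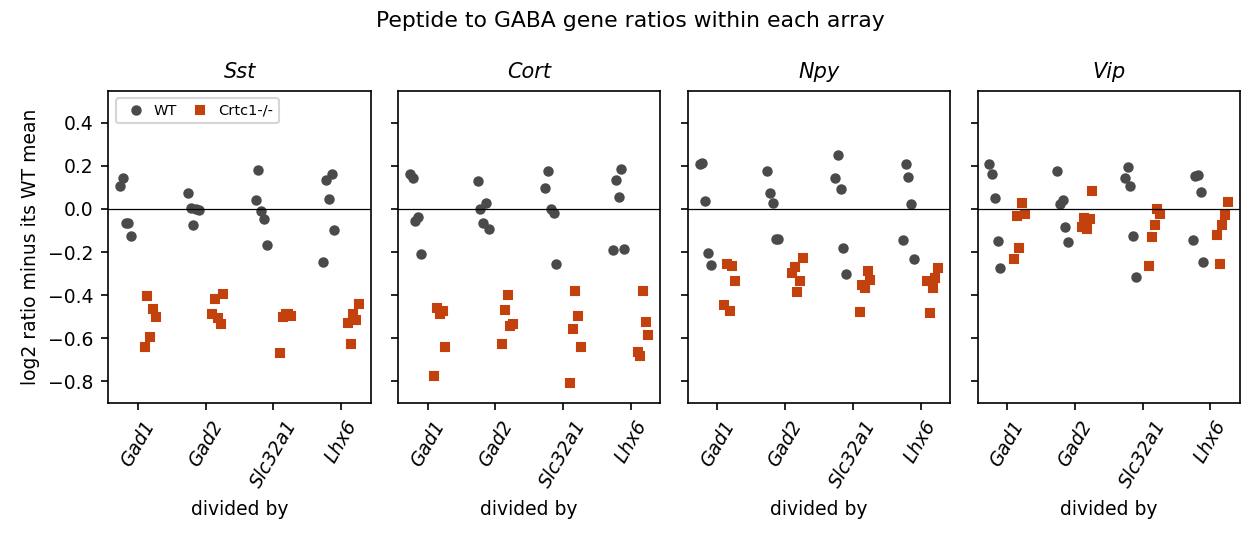
Log2 ratio of each peptide to *Gad1*, *Gad2*, *Slc32a1* or *Lhx6* within each array, minus the WT mean of that ratio (y axis), in 5 WT (grey circles) and 5 *Crtc1*-/- (orange squares) mice. All *Crtc1*-/- points of *Sst* and *Cort* lie below all WT points, *Npy* is lower with overlap against *Gad1* and *Slc32a1*, and *Vip* overlaps throughout.

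Other genes of the same cells and of the same transmitter were measured for comparison. Of 18 further interneuron genes none passed (limma; 2 had an unadjusted p under 0.05), with a median of 0.00089 and a smallest adjusted p of 0.432. *Gria4*, an AMPA receptor subunit, differed by −0.14 (95% CI −0.26 to −0.011) and *Kit*, a receptor tyrosine kinase, by −0.15 (95% CI −0.29 to −0.016). Of 22 measured GABA-A receptor, GABA transporter and inhibitory synapse genes none passed (limma; 2 had an unadjusted p under 0.05), and the median was 0.013. *Gabra5*, the receptor subunit of extrasynaptic inhibition, had the largest difference among them, −0.34 (95% CI −0.55 to −0.12) with an adjusted p of 0.199, and *Gabrg3* differed by 0.16 (95% CI 0.0073 to 0.31).

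The labelled tissue was checked against markers of its neighbours, since striatum and olfactory bulb hold many GABA neurons that share *Gad1*, *Gad2* and the *Dlx* genes. The mean level of 6 striatal markers ran from 7.08 to 7.75 in WT and from 7.23 to 7.52 in *Crtc1*-/- mice, with 0 called (limma) and *Pde10a* lowest at −0.44 (adjusted p = 0.151). The 5 olfactory bulb markers averaged 4.34 to 4.74 and 4.50 to 4.67. Markers of cortical projection neurons were bright, at 10.25 to 10.33 in WT and 10.24 to 10.30 in *Crtc1*-/- mice. Among 6 thalamic markers none passed (limma), although *Slc17a6* (0.59, adjusted p = 0.0574) and *Rgs16* (0.29) had groups that did not overlap. Of these 6, 5 had a difference above 0 and 1 below. Their mean level ran from 6.77 to 6.90 in WT and from 6.94 to 7.08 in *Crtc1*-/- mice. Like the hippocampal mean, the thalamic mean thus did not overlap between genotypes, and it was not used as a covariate. The part of these cells in the values of the listed genes was not tested.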

How the data were processed

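Cortical RNA of 5 WT and 5 *Crtc1*-/- female mice was measured on GeneChip Mouse Genome arrays (Affymetrix), 1 array per mouse. The authors labelled cRNA by a 3′ in vitro transcription kit, ran quality control in RACE and excluded chips of high standard error. What they deposited is a table of log2 values for every probe set, and the background correction and normalization behind these log2 values are not given in the sources used here. The study combined several batches of mice in its experiments, and the labels give no batch for the arrays.

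Of 45101 probe sets, 64 controls were removed and 45037 tested. The annotation named 1 gene for 34945 probe sets, several for 932 and none for 9160. For each of 18193 genes the probe set of highest mean was used. Genotypes were compared with the moderated statistics of limma 3.58.1 (R 4.3.3), with Benjamini-Hochberg correction at 0.05 over all genes or all probe sets. Ratios within arrays and correlations used two-sided exact permutation tests. The fit was tested on simulated data first. Precision is limited by 5 arrays per genotype.

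The members, the other gene lists and the tests were chosen with earlier results of these data known. Every measured member is named, with each array's value for the main genes of each role and for any gene that passed or whose groups did not overlap. Of other lists, genes that passed and up to 4 genes of smallest p are named. Promoter windows came from RefSeq (GRCm38.p6). Results were also recomputed after quantile normalization or median centring, without dim probe sets or those of types _s_at and _x_at, with a robust trended prior or none, with array weights, with replicate numbers as blocks, with the mean level of a marker list as a covariate, with each gene averaged over its probe sets, and with each array omitted in turn.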

Additional observations from a re-analysis of the deposited data

Results flagged for a closer look

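In groups of 5 mice, the gap between the most extreme value and its neighbour was set against the whole range of the group, and values above 0.71 of the range, the 95% critical value, were singled out. Of 68 groups of 34 genes, 2 held such a value, and chance alone gives about 1 in 20 groups.

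*Lamp5* read 12.01 in *Crtc1*-/- replicate 1, while the other 4 *Crtc1*-/- mice lay between 11.91 and 11.92, so that the gap was 0.920 of the range. Without this mouse *Lamp5* differed by 0.23 and still passed (limma adjusted p = 0.0344). *Dlx6* read 5.36 in *Crtc1*-/- replicate 5, against 5.70 to 5.81 in the other 4, a gap of 0.752 of the range. The difference of *Dlx6* ran from −0.027 to 0.12 with each array left out, and it did not pass in any of these fits.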

How the results depend on the processing

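*Lamp5* was the 1 listed gene called under every alternative that calls any, with adjusted p of 0.0205 to 0.0365 when each array was left out (limma, difference 0.23 to 0.26). No listed gene was called with the oligodendrocyte mean as a covariate, with the hippocampal mean, or with the replicate number as a block (*Lamp5* 0.25, adjusted p = 0.107). After the mean of each genotype was subtracted from every probe set, same-numbered arrays correlated at −0.327 to 0.0872. Of the 5 WT arrays, 1 correlated best with its own number, so these values gave no sign that the numbers pair the arrays. Over probe sets the *Lamp5* call was lost, giving 0 called, with array medians centred, with the replicate block, with the striatal, oligodendrocyte or hippocampal covariate, and with any array left out. The number of listed genes whose groups did not overlap was 1 to 2 with an array left out. *Maf* joined without WT replicate 3, *Cnr1* without WT replicate 4, *Calb1* without *Crtc1*-/- replicate 3 and *Gad2* without *Crtc1*-/- replicate 4. The share over all genes was not computed with an array left out, and smaller groups overlap less readily. These counts therefore cannot be set beside the 3.14% of all genes found with all arrays.

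Over all genes the count of calls, 139 here, was 12 with the hippocampal covariate, 54 with the oligodendrocyte covariate, 62 with the replicate block, 75 without moderation and 236 with a trended and robust prior, and 93 to 120 with an array left out. Over all probe sets 136 became 13, 30, 40, 75 and 239 under the same settings, and 70 to 105 with an array left out. The peptides called were 3, 0 with the hippocampal covariate, and 2 to 3 with an array left out. They were 2 without moderation, with the replicate block and with the oligodendrocyte covariate, where *Npy* missed the threshold (adjusted p = 0.133, 0.157 and 0.391). The ratios called were 12, 10 to 12 with an array left out, and 0 with the replicate block, where the smallest possible exact sign-flip p was 0.0625. The ratio test has no form under the variance prior, moderation, array weights or covariates. The median of the listed genes was 0.025 with the oligodendrocyte covariate and −0.023 to 0.0023 with an array left out. The hippocampal mean did not overlap between genotypes, so the fits with it cannot separate that mean from genotype. The causes of these shifts were not tested.

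Of 657 alternative values of listed genes, 602 kept direction and call, 3 lost the call (*Lamp5*) and 52, in 19 genes, changed sign, none larger than 0.195 or with an adjusted p under 0.699. Signs changed with array weights (*Nkx2-1* −0.013 and *Lhx6* 0.0023), with the striatal covariate (*Adarb2* −0.017), with the oligodendrocyte covariate (*Gabbr1* 0.018, *Calb2* 0.064, *Ndnf* 0.045, *Elfn1* 0.025, *Lhx6* 0.088, *Dlx6* −0.12 and *Sp8* 0.027), with the hippocampal covariate (*Gad2* 0.013, *Abat* −0.0029, *Pvalb* −0.15, *Calb2* 0.089, *Syt2* −0.19, *Ndnf* 0.085, *Dlx6* −0.056, *Sp8* 0.0084, *Npas1* 0.023 and *Id2* −0.029) and with the mean of all probe sets (*Gad2* 0.0080, *Slc32a1* 0.035, *Adarb2* −0.092 and *Maf* −0.026). *Vip*, which is not on the list, changed sign with the oligodendrocyte (0.032) and hippocampal (0.086) covariates. With an array left out, the ranges of listed genes that crossed 0 were *Abat* (−0.0038 to 0.018), *Adarb2* (−0.13 to 0.18), *Aldh5a1* (−0.014 to 0.034), *Calb2* (−0.041 to 0.028), *Dlx6* (−0.027 to 0.12), *Gabbr1* (−0.032 to 0.0098), *Gad1* (−0.038 to 0.0057), *Lhx6* (−0.056 to 0.059), *Nkx2-1* (−0.028 to 0.078), *Slc32a1* (−0.035 to 0.018) and *Sp8* (−0.069 to 0.042). The values of *Erbb4*, *Nkx2-1* and *Sp8* are limited by their low level, among the dimmest 25 percent of all genes, and background was not measured here. The filter on dim probe sets kept 27 listed genes.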
